A study of Mus musculus with 2 samples.

Results

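The chemokine ligand genes examined here were the protein-coding genes of the mouse build mm10 whose symbols start with Ccl, Cxcl, Xcl or Cx3cl followed by a digit, with Ccl25 left out. The rule found 36 members among 21938 protein-coding genes of GENCODE M21. Cxcl11 did not enter because the annotation calls it a polymorphic pseudogene, and Ccl21c has no entry in it. Chromatin accessibility had been measured by DNase-seq, in which the enzyme DNase I cuts DNA that is not wrapped in nucleosomes, and places with many cuts are called as peaks. The tissue was thymus, taken at 25 days of age from female mice of strain B6CASTF1/J, F1 animals of a cross with the wild-derived CAST strain. The study held 1 group of 2 libraries, each from a separately numbered animal under 1 donor record, with no treatment, no second genotype and no contrast. All values below are therefore descriptions, given for each library.

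Chemokines are small secreted proteins that steer cells along concentration gradients through G protein-coupled receptors on the moving cell. In the thymus they are made largely by epithelium, stroma, endothelium and myeloid cells, while developing T cells carry the receptors that draw them from the cortico-medullary border to the cortex and later to the medulla. Homeostatic chemokines are made steadily and place lymphocytes in tissues. Inflammatory chemokines are switched on by NF-kB, AP-1 and interferon signals and call in neutrophils, monocytes and effector T cells.

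The longer deposited peak list held 127552 peaks in replicate 1 and 67270 in replicate 2, a ratio of 1.896, and whether a peak seen in replicate 1 alone was missed in the other library was not tested. Of 13 T-lineage markers (Cd3e, Cd4, Cd8a, Rag1 and others), all 13 had a peak within 1 kb of the start in both libraries. Among 8 thymic epithelium markers the number was 3 in replicate 1 and 2 in replicate 2. Of 7 myeloid and dendritic markers it was 4 in both, of 5 stroma markers 3 and 2, and of 5 endothelium markers 2 in both. Of 5 B cell markers it was 2 and 1, of 4 erythroid markers 1 in both, and of 4 liver control markers 0 in both. The share over all protein-coding genes was 61.7% and 55.1%, so counts near it do not show that a cell type was present. In a bulk tissue, few cells with an open site and weak opening in many cells cannot be told apart.

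Few chemokine ligand starts were open in these thymuses. A peak within 1 kb of the start was found at 10 of 36 members in replicate 1 (27.8%, Wilson 95% interval 15.8% to 44.0%), against 61.7% of all protein-coding genes. In replicate 2 it was found at 3 of 36 (8.33%, 2.87% to 21.8%), against 55.1% of all genes. The same 3 genes were open in both libraries, against 54.4% of all genes: Ccl27a, Cxcl10 and Ccl4. Another 7 members (19.4%, with 7.21% of all genes) had a peak in replicate 1 alone: Cxcl1, Cxcl2, Cxcl3, Cxcl9, Cxcl12, Cx3cl1 and Ccl6. None had one in replicate 2 alone (0.638% of all genes), a count of 0 whose interval reaches 9.64%. The remaining 26 members had none in either library. The intervals cover counting error over genes only, and neighbouring members that arose by duplication are not independent.

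**Figure D1:**
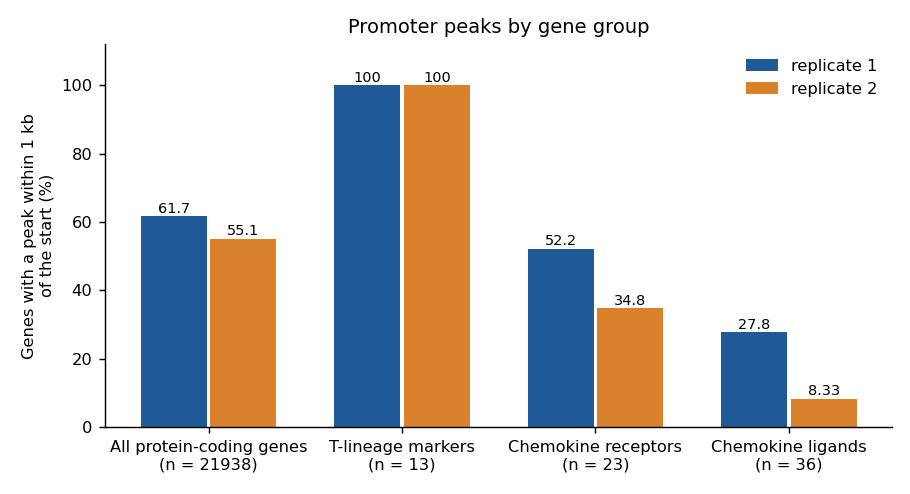
Share of genes with a DNase peak within 1 kb of the start (percent, vertical axis) in replicate 1 and replicate 2, for all protein-coding genes, T-lineage markers, chemokine receptors and chemokine ligands. The ligands stand at 27.8% and 8.33%, below all genes at 61.7% and 55.1%.

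The density of cuts separated the 3 shared promoters from the 7 others. Density is the authors' value per peak on an unstated scale, so it is given here as a percentile among all peaks of the same library. The densest promoter peak of Ccl27a stood at the 92.6th percentile in replicate 1 and the 80.2nd in replicate 2. That of Cxcl10 stood at 78.0 and 62.7, and that of Ccl4 at 69.8 and 69.3. The 7 members open in replicate 1 alone ran from 2.30 at Cxcl1 to 31.8 at Ccl6. Over the 10 members with a promoter peak in replicate 1 the median was 24.8, compared with 92.8 over the 13527 protein-coding genes with one. Over the 7 members with one in replicate 1 alone it was 14.8, compared with 24.8 over the 1582 genes of that kind.

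The false discovery rate track, which gives a value per base and lists only those under 0.05, was read at the same windows. It had such a base at 12 of 36 members in replicate 1 (62.7% of all genes) and at 3 in replicate 2 (56.3%). The 2 members it added were Ccl9, whose lowest value was 0.0397, and Cxcl14, at 0.0294. The lowest values at the shared promoters were 1.27e-80 and 1.89e-26 for Ccl27a, 1.22e-37 and 3.19e-17 for Cxcl10, and 4.35e-25 and 5.94e-21 for Ccl4, replicate 1 first. Footprints, short protected stretches within open DNA, were called within 1 kb of the start in both libraries at the same 3 genes, with 53.4% of all genes having them. Ccl27a had 9 and 7 footprints, Cxcl10 had 2 and 5, and Ccl4 had 4 and 4.

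**Figure D2:**
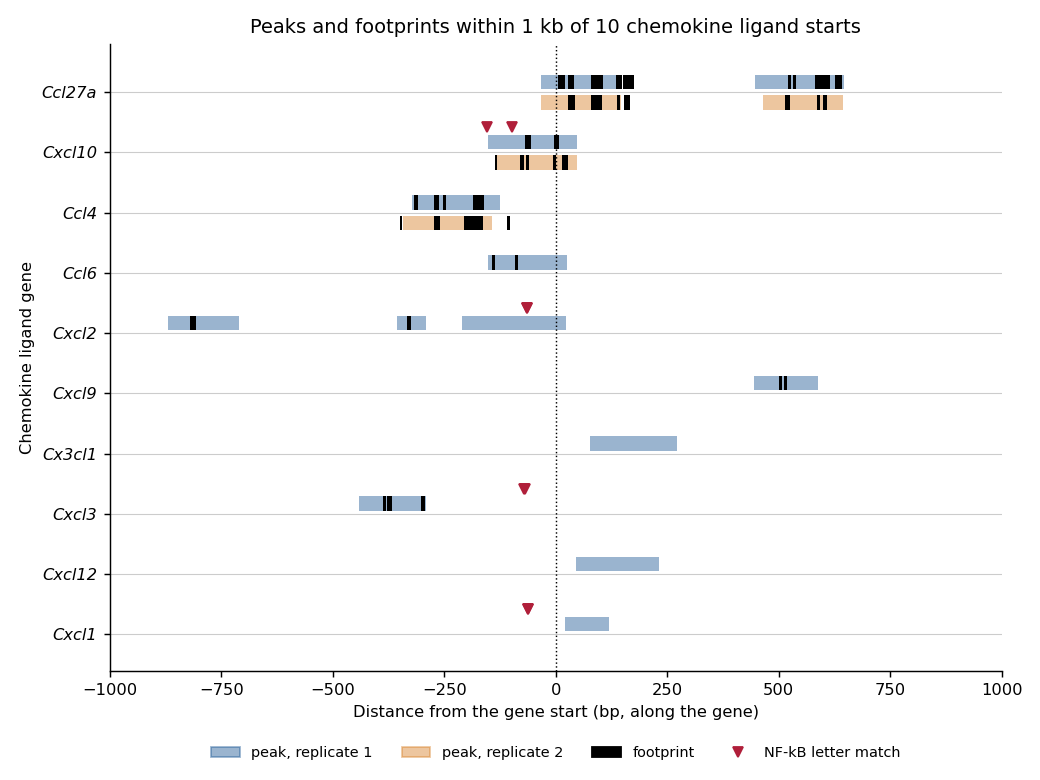
Peaks (coloured bars, replicate 1 above replicate 2), footprints (black) and NF-kB letter matches (triangles) within 1 kb of the 10 chemokine ligand starts that had a peak in replicate 1; the horizontal axis is distance from the start in bp along the gene. Ccl27a, Cxcl10 and Ccl4 carry peaks of both libraries at the same places, and the other 7 carry peaks of replicate 1 alone.

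Among the 10 homeostatic members, 2 had a promoter peak in replicate 1 and 1 in replicate 2 (20% and 10%, against 61.7% and 55.1% of all genes). Ccl27a, whose product draws skin-homing T cells through Ccr10, was the gene open in both, with 1 peak covering the start and another beginning 447 bp into the gene in replicate 1. The sequence there is repeated in the build: 31.5% of the 31-base words in the 2 kb window occur once, and the median word occurs 9 times. Within the 2 peaks of replicate 1 the unique share was 50% and 52.7%. How reads from repeated copies were placed is not given in the sources used here. Cxcl12, the ligand of Cxcr4 that retains early thymocytes in the cortex, had 4 territory peaks in replicate 1 and 0 in replicate 2, where a territory is the gene body plus 10 kb on each side. Its peak 139 bp past the start stood at the 7.20th percentile of replicate 1, and a peak 1514 bp before the start stood at 70.6.

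The Ccr7 ligands, which bring selected thymocytes into the medulla, had no peak in their territories in either library: Ccl19, Ccl21a and Ccl21b. Their windows are also repeated, with 16.9%, 16.3% and 0% of words unique, and Ccl27b had 0% and no peak either. Where words have several copies, closed DNA and reads that were not placed cannot be told apart. Cxcl13, the B cell follicle chemokine that binds Cxcr5, had no promoter peak and 2 territory peaks in replicate 1, at the 65.4th and 63.6th percentiles. Cxcl14 had 1 territory peak, also in replicate 1, at 76.9. Without the 5 members under 50% unique words, a promoter peak was seen at 9 of 31 members in replicate 1 and 2 of 31 in replicate 2. The share over all genes with mostly unique words was not computed.

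Of 14 inflammatory CC members, 2 had a promoter peak in replicate 1 and 1 in replicate 2 (14.3% and 7.14%, against 61.7% and 55.1% of all genes). Ccl4, a chemokine made by activated T cells, NK cells and macrophages, had its peak at -323 to -124 bp from the start in replicate 1 and at -343 to -144 bp in replicate 2. Both libraries placed a footprint at nearly the same bases, -274 to -262 and -272 to -260. Among markers of its other sources, 3 of 4 NK markers and 4 of 7 myeloid and dendritic markers had a promoter peak in both libraries. Of all genes, 61.7% had one in replicate 1 and 55.1% in replicate 2. The part of these cells in the Ccl4 peak was not tested. Ccl6, a myeloid chemokine, had a peak over its start at the 31.8th percentile of replicate 1 with 2 footprints, and nothing in replicate 2. Ccl5, the late-activated T cell chemokine, had no promoter peak and 1 territory peak in each library, 4253 bp before its start in replicate 1, at percentiles 22.3 and 10.6. Ccl2, Ccl8 and Ccl12, monocyte attractants, had no territory peak in either library, nor did Ccl24, an eosinophil attractant, or Ccl20, the ligand of Ccr6. Ccl7 and Ccl11 shared 1 peak that lies between them, at 71.4 and 25.9. Ccl9 and Ccl26, an eosinophil attractant like Ccl24, had 1 territory peak each in replicate 1, at 9.75 and 22.8.

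Of the 5 neutrophil-attracting CXC members, ligands of Cxcr2, 3 had a promoter peak in replicate 1 and 0 in replicate 2. That is 60% in replicate 1, near the 61.7% of all genes, and 0% in replicate 2, against 55.1%. Cxcl2 had 3 promoter peaks, at percentiles 31, 3.63 and 6.74, and 2 footprints there. Its other territory peak in replicate 1, 5310 bp past the start, stood at 71.5. Cxcl3 had 1 at 10.9 with 3 footprints, and Cxcl1 had 1 at 2.30 with 0 footprints. Cxcl15 had no promoter peak and shared with Cxcl3 the 1 peak in its territory, and Cxcl5 had no peak in its territory. The RefSeq promoters of Cxcl1, Cxcl2 and Cxcl3 (GRCm38.p6) share 1 run of letters that matches NF-kB on both strands. It is shown in capitals in 60 bases of each, 5′ to 3′ on the plus strand, beside the differently spelled match of Ccl20.
Cxcl1: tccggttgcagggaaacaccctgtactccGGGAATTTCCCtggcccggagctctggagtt
Cxcl2: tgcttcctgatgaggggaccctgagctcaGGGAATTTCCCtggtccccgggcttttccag
Cxcl3: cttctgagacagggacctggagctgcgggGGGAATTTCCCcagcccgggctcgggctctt
Ccl20: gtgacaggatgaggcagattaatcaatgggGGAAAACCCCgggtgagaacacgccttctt
These stretches lie at chr5:90891145-90891204, chr5:90903773-90903832, chr5:90785999-90786058 and chr1:83116656-83116715. The capitals lay inside a replicate 1 peak at Cxcl2 and outside every peak at Cxcl1, Cxcl3 and Ccl20, and no footprint covered them in either library. The 3 Cxcl genes are related by duplication, so their shared run is 1 observation in origin.

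Both interferon-induced CXC members, ligands of the effector T cell receptor Cxcr3, had a promoter peak in replicate 1, and Cxcl10 also had one in replicate 2. Of all genes, 61.7% and 55.1% had one, and 2 members are too few to set against those shares. The Cxcl10 peak ran from -151 to 48 bp in replicate 1 and from -131 to 48 bp in replicate 2. The 250 bases before its start (chr5:92348890-92349139, minus strand, RefSeq, GRCm38.p6) hold an interferon-response match, 2 NF-kB matches and an AP-1 match, in capitals in that order from the 5′ end.
Cxcl10: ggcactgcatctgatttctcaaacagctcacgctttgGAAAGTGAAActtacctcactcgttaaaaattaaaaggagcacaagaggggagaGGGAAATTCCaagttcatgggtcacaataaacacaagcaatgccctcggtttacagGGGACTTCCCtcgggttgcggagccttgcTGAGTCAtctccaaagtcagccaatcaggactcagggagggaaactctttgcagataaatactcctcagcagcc
The AP-1 match runs from -74 to -68 and lay in a peak in both libraries. A footprint at -68 to -56 touched its last base in replicate 1, and one at -81 to -72 its first bases in replicate 2. These 2 footprints do not overlap, and neither covered the match. The NF-kB match beginning at -103 lay in the peak of both libraries with no footprint on it. The NF-kB match beginning at -159 touched the edge of the replicate 1 peak and lay outside that of replicate 2, and the interferon-response match at -213 lay outside both peaks. Cxcl9 had a replicate 1 peak inside the gene at the 18.7th percentile with 2 footprints. A denser peak 15558 bp past the Cxcl9 start, at 89.7 and 60.2, was nearer to the start of Sdad1, at 2042 bp.

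Ccl17 and Ccl22, which dendritic cells make to attract Ccr4-bearing thymocytes and regulatory T cells, had no promoter peak in either library. Ccl17 had 5 territory peaks in replicate 1 and 1 in replicate 2, and the shared one, 2528 bp past the start, stood at 89.1 and 38.8. Ccl22 had 1, in replicate 1, 9749 bp before its start. Of the membrane-tethered ligands, Cx3cl1, made by endothelium and epithelium, had a promoter peak at the 14.8th percentile in replicate 1 and none in replicate 2. Cxcl16, which holds Cxcr6-bearing cells, had none in either library. Xcl1, the XC member, which draws Xcr1-bearing dendritic cells, had no peak in its territory in either library.

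Over all members, the territories held a mean of 1.35 ± 0.884 peaks (SD, n = 2 libraries), 1.97 in replicate 1 and 0.722 in replicate 2. All protein-coding genes had means of 6.02 and 3.36. Member territories are short, with a median of 23.3 kb against 37.4 kb, so genes of like length were set beside them. For the 9269 genes with territories of 20 to 33 kb the means were 3.46 and 2.10, and for the 34 members in that range 1.74 and 0.559. A promoter peak was found at 47.1% and 41.6% of those genes, and at 29.4% and 8.82% of those members. No territory peak at all was seen at 11 members in replicate 1 (17.5% of all genes), 22 in replicate 2 (26%) and 11 in both (16.6%). Among genes of like length in replicate 1, 30.9% had none, close to the 32.4% of members, while in replicate 2 the values were 40.7% and 64.7%. The 11 members were Ccl2, Ccl8, Ccl12, Ccl19, Ccl20, Ccl21a, Ccl21b, Ccl24, Ccl27b, Cxcl5 and Xcl1.

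**Figure D3:**
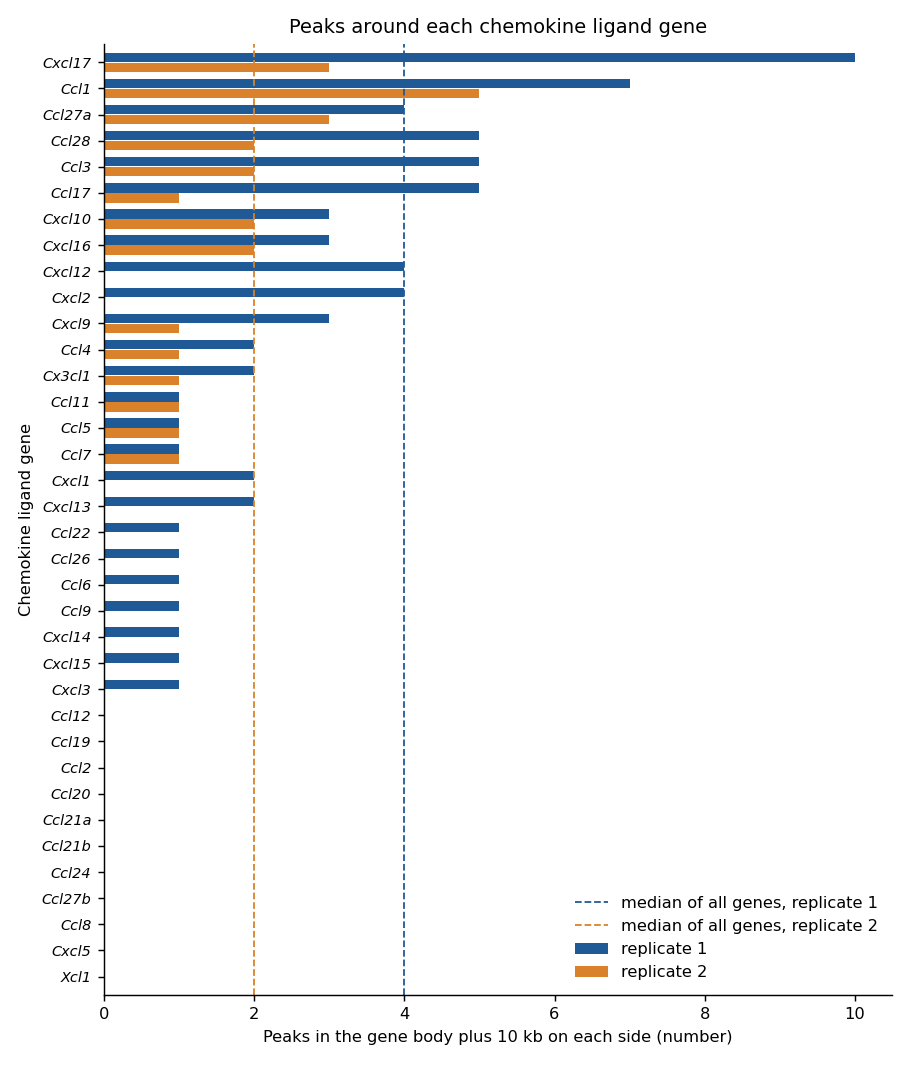
Number of peaks in the gene body plus 10 kb on each side (horizontal axis) for each of the 36 chemokine ligand genes in both replicates, with dashed lines at the medians of all protein-coding genes (4 and 2). Cxcl17 and Ccl1 have the most, and 11 members have none.

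The 6 members with the most territory peaks were Cxcl17 (10 in replicate 1 and 3 in replicate 2), Ccl1 (7 and 5), Ccl27a (4 and 3), Ccl28 (5 and 2), Ccl3 (5 and 2) and Ccl17 (5 and 1). Several of these peaks lie at other genes. All 3 shared peaks of Cxcl17, a mucosal chemokine, lie in Lipe, the hormone-sensitive lipase gene, at percentiles 96.4 and 87.8, 94.2 and 83.5, and 83.0 and 72.9. The 3 peaks in exons or introns of Cxcl17 itself were found in replicate 1 alone. Both shared peaks of Cxcl16 lie within 1 kb of the start of Med11, a Mediator subunit gene, at 95.3 and 91.7 and at 95.0 and 89.5. The member territories held 67 different peaks in replicate 1, of which 25 (37.3%, 26.7% to 49.3%) had a partner in the other library, with 46.9% of all peaks having one. In replicate 2 all 25 had a partner (100%, 86.7% to 100%), with 88.8% of all peaks. The replicate 1 peaks that had a partner stood at a median percentile of 79.3, and the others at 26.0. The same medians over all peaks with and without a partner were not computed, so this split is not shown to be particular to members.

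Apart from Med11, Lipe and the Ccl27a promoter, the densest shared peaks by mean percentile were distal sites at Ccl3, Ccl28 and Ccl1. They are shown because none of them lies in another gene or within 1 kb of a start. All 3 are on the plus strand, from GRCm38.p6, with motif matches in capitals: an ETS match at Ccl3, a repeated NF-kB match at Ccl28, and a CTCF match followed by an AP-1 match at Ccl1.
Ccl3: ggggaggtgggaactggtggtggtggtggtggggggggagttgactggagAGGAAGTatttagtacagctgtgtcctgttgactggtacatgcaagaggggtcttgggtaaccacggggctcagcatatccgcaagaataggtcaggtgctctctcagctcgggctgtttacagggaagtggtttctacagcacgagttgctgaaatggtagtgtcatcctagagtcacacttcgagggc
Ccl28: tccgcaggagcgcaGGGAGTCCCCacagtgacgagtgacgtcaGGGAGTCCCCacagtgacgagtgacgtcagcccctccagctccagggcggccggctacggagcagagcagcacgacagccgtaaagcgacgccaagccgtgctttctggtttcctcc
Ccl1: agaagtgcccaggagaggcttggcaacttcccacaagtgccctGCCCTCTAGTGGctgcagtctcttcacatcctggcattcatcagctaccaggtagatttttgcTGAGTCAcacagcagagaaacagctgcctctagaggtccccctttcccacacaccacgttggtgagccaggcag
The Ccl3 site (chr11:83640221-83640460) is intergenic, 9014 bp past the Ccl3 start, stood at 83.6 and 88.7, and held 6 footprints in replicate 1. Ccl3 encodes an inflammatory ligand of Ccr1 and had no peak within 1 kb of its start in either library. The Ccl28 site (chr13:119631881-119632040) is intronic, 8142 bp into the gene, and stood at 89.98 and 79.3. The second of its NF-kB matches was touched by a footprint in both libraries and the first in neither. Ccl28, a mucosal ligand of Ccr10, also had no promoter peak. The Ccl1 site (chr11:82174921-82175100) is intergenic, past the 3′ end of Ccl1, and stood at 91.2 and 67.3. Its CTCF match touched a footprint in both libraries and its AP-1 match in replicate 2 alone. Ccl1, the ligand of Ccr8, has a GENCODE model whose territory spans 149 kb and whose start is 125878 bp from the RefSeq start. Neither start had a peak within 1 kb, and its count of territory peaks depends on that long model.

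Most members lie in clusters, and the clusters differed. The Ccl5 to Ccl4 cluster on chromosome 11 (Ccl5, Ccl9, Ccl6, Ccl3, Ccl4) held 12 peaks in replicate 1 and 6 in replicate 2 over 139 kb, or 8.64 and 4.32 per 100 kb. The genome-wide rates were 4.69 and 2.47. The Ccl2 to Ccl1 cluster on the same chromosome held 8 and 6 over 270.1 kb (2.96 and 2.22 per 100 kb), and 7 and 5 of these lie in or next to the long Ccl1 model. The Cxcl5 to Cxcl2 cluster on chromosome 5 held 5 and 0 over 147 kb. The cluster of Ccl22, Cx3cl1 and Ccl17 on chromosome 8 held 6 and 1 over 66.4 kb. The Ccl27b to Ccl21a cluster on chromosome 4 held 0 in both over 119 kb, where the windows are repeated as given above.

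**Figure D4:**
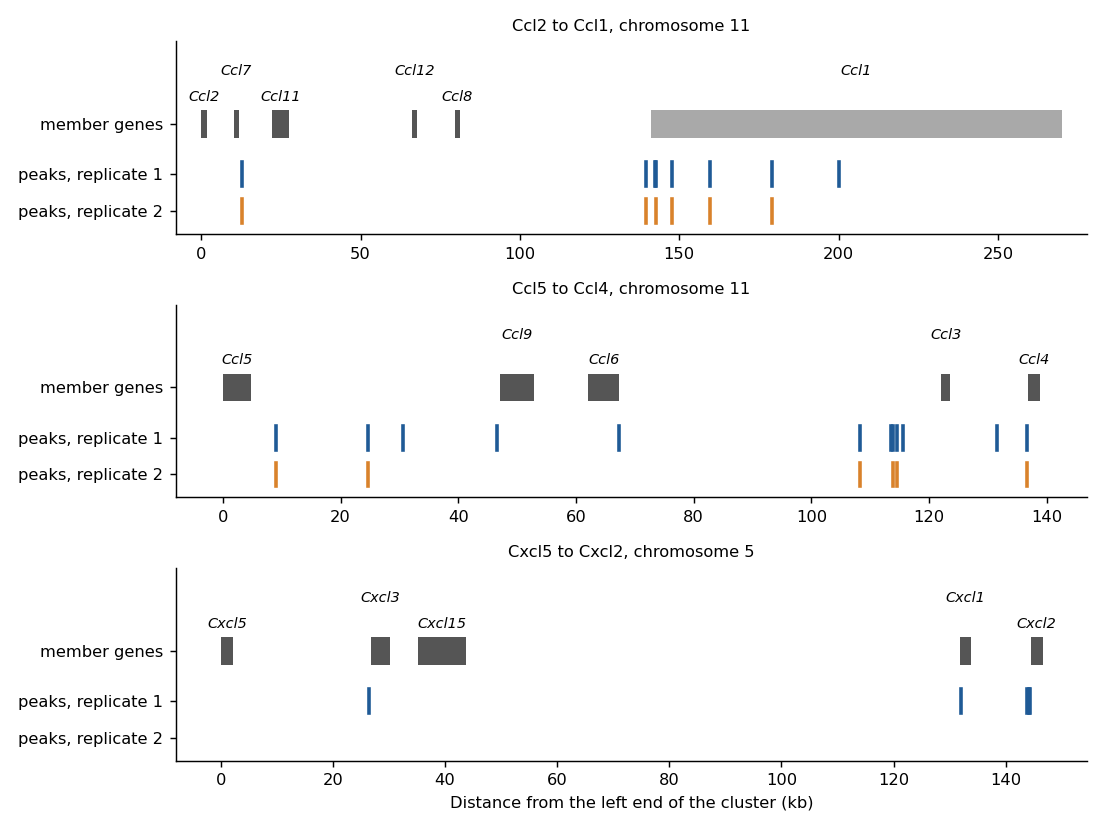
Member genes (grey boxes) and peaks of replicate 1 and replicate 2 (ticks) in the 3 clusters with 5 or more members, by distance in kb from the left end of each cluster. In the Cxcl5 to Cxcl2 cluster there are 5 peaks in replicate 1 and 0 in replicate 2.

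In promoter peaks, the receptors of these ligands stood between the ligands and all genes. A promoter peak was found at 12 of 23 receptor genes in replicate 1 (52.2%) and 8 in replicate 2 (34.8%), and the same 8 were open in both, among them Ackr3, Ccr7, Ccr8, Cxcr2, Cxcr3, Cxcr4 and Cxcr6. Receptors and ligands could be set side by side. Cxcr4 had 5 and 4 promoter peaks with the densest at 97.4 and 95.8, where its ligand Cxcl12 had 1 and 0. Ccr7 had 1 peak in each library, at 91.3 and 91.7, and its ligands had none, in windows of repeated sequence. As given above, closed DNA and reads that were not placed cannot be told apart there. Cxcr3 had 1 in each, at 46.4 and 22.8, as did its ligand Cxcl10, while its ligand Cxcl9 had 1 in replicate 1 alone. Ccr10 went the other way, with 0 in both libraries, where its ligand Ccl27a had 2 in both and Ccl28 had none. In territory peaks the receptors did not stand between: their means were 8.70 and 4.61, above the 6.02 and 3.36 of all genes. The medians were 4 and 3, against 4 and 2. The receptors with the most territory peaks were Cx3cr1 (39 and 28), Ccr9 (30 and 14) and Cxcr5 (25 and 12), with territories of 188 kb, 125.9 kb and 70.1 kb. The chemokines with other symbols, Pf4 and Ppbp, had no territory peak in either library.

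Letter matches were counted on both strands in the 200 bases centred on each peak, a window that reaches past the ends of peaks shorter than that (43 of 67 member peaks in replicate 1 and 10 of 25 in replicate 2). NF-kB matches were present in the windows of 9 of 67 member peaks in replicate 1 (13.4%, against 3.3% of all peaks) and in 4 of 25 in replicate 2 (16%, against 3.62%). Inside the peaks' own bounds an NF-kB match was present in 9 and 3 of them, and an interferon-response match in 4 and 1. The genes in whose territories the 9 windows lie were Ccl1, Ccl5, Ccl22, Ccl28, Cxcl2, Cxcl10 (2 peaks), Cxcl12 and Cxcl16. The Cxcl16 window lies at the start of Med11, and 1 of the 2 at Cxcl10 lies in an intron of Art3. Those at Ccl1, Ccl22, Cxcl2 and Cxcl12 belong to peaks without a partner in replicate 2. In the windows, AP-1 (TGANTCA) was present in 10.4% and 16% (5.96% and 5.53% of all peaks), and the interferon-response motif in 5.97% and 8% (2.14% and 2.10%). RUNX (TGTGGT), a motif of T cell enhancers, was present in 16.4% and 16% (19.2% and 19.1%), and ETS (AGGAAGT) in 8.96% and 8% (11.5% and 13.2%). The counts were 7 and 4 peaks for AP-1, 4 and 2 for the interferon-response motif, 11 and 4 for RUNX, and 6 and 2 for ETS. STAT, also counted, was present in 2 and 2 peaks (2.99% and 8%, against 5.04% and 4.74% of all peaks). CTCF was present in 5 and 1 (7.46% and 4%, against 5.46% and 4.25%). TCF/LEF was present in 2 and 1 (2.99% and 4%, against 3.06% and 3.16%). Whether these last shares lay above or below all peaks differed between the libraries. RefSeq promoters were matched for 26 of 36 members, with 31 starts. Of these, 7 (22.6%) held an NF-kB match, with 4.51% of all RefSeq promoters: Ccl9, Ccl20, Ccl27a, Cxcl1, Cxcl2, Cxcl3 and Cxcl10. The start of Ccl27a with the match lies 4035 bp from its GENCODE start, and Cxcl1, Cxcl2 and Cxcl3 share 1 run, as given above. AP-1 was matched at as many starts, 7 (22.6%, with 7.81% of all). ETS was matched at 5 (16.1%, with 9.35%) and the interferon-response motif at 3 (9.68%, with 3.44%). RUNX was matched at 5 (16.1%, with 16.8%) and STAT at 2 (6.45%, with 8.30%). TCF/LEF was matched at 1 (3.23%, with 3.73%) and CTCF at 0 (0.557% of all). Within 1 kb of the GENCODE starts there were 17 NF-kB matches at 12 members, some overlapping each other, of which 4 lay in or touched a replicate 1 peak, at Cxcl2 and Cxcl10, and 1 a replicate 2 peak. A match describes letters and is not evidence of binding.

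Footprints were also compared between the libraries. Member territories held 181 footprints in replicate 1 and 94 in replicate 2, and 35.4% and 73.4% of them overlapped one of the other library by at least 1 bp. Within 1 kb of a member start there were 24 and 16, of which 41.7% and 68.8% did so. The 2 libraries differ in the number of footprints called in all, 363775 and 203939. The same shares over all footprints were not computed, so these values do not set the members apart from other genes.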

How the data were processed

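The 2 DNase-seq libraries are named here by the biological replicate numbers of the labels. They were treated as coming from separate animals, which are numbered separately but stand under 1 donor record. Positions are on mm10, per the labels. The deposited notes derive each file from that library's own alignment; the aligner and callers are not named in the sources used here, and total read counts were not analysed here. The authors deposited 2 peak lists per library with a signal density per peak, whose scaling is not stated; the longer list was used, and density was ranked within it. The authors deposited a false discovery rate (q-value) per run of bases, limited to values below 0.05. Deposited footprints carry the same number on every line, so positions were used.

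Members and lists were chosen with earlier results of these data known. Promoters were the 1 kb on each side of the GENCODE M21 start, and territories the gene body plus 10 kb; overlap needed 1 bp. A peak's midpoint decided its place: promoter first, then exon, intron and intergenic. Members named in full were those with a promoter peak in either library and the 6 with the most territory peaks; peaks named were the 8 densest shared ones and the densest promoter peaks; receptors named were those open in both libraries, except 1 item that is not reported here, and the 3 with most territory peaks. Other members, peaks and receptors given values were chosen after their values were seen. No test was run, because there is 1 group. Wilson 95% intervals cover counting error. Overlap code was checked against bedtools 2.31.1 on 3000 simulated intervals, with 0 differences. Python 3.11.15, numpy 2.4.6, pandas 2.3.3, scipy 1.17.1 and matplotlib 3.10.9 were used.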

Additional observations from a re-analysis of the deposited data

How the results depend on the processing

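Of 61 values recomputed under other settings, 45 stayed within the limits set and 16 moved by more. The limits were 1.5 times for a count, the SD of 0.884 between libraries for a mean, and the Wilson interval for a percentage. The replicate 2 mean of 0.722 is smaller than that SD, so no fall in it could count as moved. With replicate 1 left out, the promoter peak count was bound to stay at 3, because no member was open in replicate 2 alone. The 45 is therefore not a measure of stability. The number of members with a promoter peak in replicate 1 was 10, and it was 6 with the shorter deposited lists, and 3 both with the denser 50% of peaks and with lists of equal length. The 3 were Ccl27a, Cxcl10 and Ccl4 in the last 2 settings. The share of all genes with a promoter peak was not computed for the shorter lists, so the 6 has none beside it. With the denser 50% of peaks and with lists of equal length it was 53.1% and 53.6% in replicate 1. In the same 2 settings the mean peaks per member territory in replicate 1 was 1 and the different peaks numbered 35. With the gene body alone the means were 0.694 in replicate 1 and 0.25 in replicate 2, the second within that SD but well below 0.722, and the different peaks numbered 25 and 9. With 50 kb on each side the means were 6.67 and 3.36 and the different peaks 172 and 94, in territories that reach further into other genes. Leaving out a library turns the count in both libraries into the count of the other one: 3 to 10 members for promoter peaks (10 without replicate 2) and 3 to 7 for promoter footprints (7 without replicate 2). RefSeq starts gave 9 and 2 of 26 members. This setting and the members with mostly unique words were chosen after seeing the data. No share of all genes was computed for either. No paired analysis was possible because there is 1 group and no contrast. Repeated sequence limits Ccl27a, Ccl27b, Ccl19, Ccl21a and Ccl21b, and the smaller peak number limits what replicate 2 can show.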
